A study of Homo sapiens with 8 samples.

Results

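The genes described here carry the ATR-CHK1 checkpoint, which holds back origin firing and mitotic entry while replication is under stress. They are the 10 genes ATR, ATRIP, CHEK1, CHEK2, CLSPN, TOPBP1, RAD9A, RAD17, HUS1 and TIMELESS, out of 21595 genes named by the tested features of the arrays. Every non-control probe that the scanner files assign to one of these names was taken, which gave 17 probes. All 17 exceeded background clearly on each of the 8 arrays and entered the test. RNA came from HCT-116 cells, a human colorectal cancer line grown in DMEM with 10% serum, and was hybridized to one-colour Agilent arrays of 60-base probes, with 4 groups of 2 arrays. WT are parental cells without drug, and WT+NU6102 are the same cells after 24 h in 20 µM NU6102, an inhibitor of CDK1 and CDK2. CDK2-/- cells are a knockout of CDK2 in HCT-116, bought with the parental line and kept without drug, and R50 cells are a resistant HCT-116 population kept in 50 µM NU6102. The dose of NU6102 and the length of exposure therefore both differ between WT+NU6102 and R50 cells, and R50 is 1 resistant population. Whether the 2 arrays of a group came from separate cultures is not given in the sources used here, so the p-values measure the spread between these arrays, which may be technical.

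Single-stranded DNA at a stalled fork is coated by replication protein A, which recruits the kinase ATR through its partner ATRIP. RAD17 and small RFC subunits load the 9-1-1 clamp of RAD9A, RAD1 and HUS1, the clamp brings in TOPBP1, and TOPBP1 switches ATR on. ATR then phosphorylates CHK1, the product of CHEK1, on a platform made by claspin (CLSPN) and the fork protein TIMELESS, and CHK1 restrains the CDC25 phosphatases that activate CDK2 and CDK1. CHK2, the product of CHEK2, is the matching kinase of the ATM branch, which answers to broken DNA. The arrays measure transcripts of these genes, not the phosphorylation that switches the pathway.

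All values below are log2 of the background-subtracted signal less the 75th percentile of that array, so they are relative signals, and levels of different probes were not compared. Each gene is represented by its brightest probe. For the checkpoint genes the other probes are given beside it. Several other genes named below, among them RAD1, ATM and TLK2, also have further tested probes, which are not given. A difference was called at a Benjamini-Hochberg adjusted p under 0.05 over all 28677 tested probes in 1 limma fit of the 8 arrays, with no minimum fold, and errors are standard errors of that fit. CDK2-/- and R50 arrays lay on slide 1 and WT and WT+NU6102 arrays on slide 2, so the effect of treatment and the difference of R50 from CDK2-/- were measured within a slide, whereas in the other comparisons slide and group cannot be told apart. On each array 32376 to 36206 spots exceeded background clearly, and duplicates correlated across probes with r between 0.994 and 0.996. The CDK2 probe gave −1.56 and −1.51 in CDK2-/- cells against −0.76 and −0.76 in WT. Colon epithelial markers were measured (7 of 8 tested), with a summed linear signal of 478 to 486 in WT, 561 to 580 in WT+NU6102, 602 to 625 in CDK2-/- and 742 to 748 in R50 cells. In R50 against WT, KRT8 (0.83), KRT18 (0.73), KRT19 (0.68) and CDH1 (0.60) were called higher. EPCAM (0.02), CDX1 (0.04) and CDX2 (0.01) were not called there, so the sum does not describe the markers as a set. Of 8 markers of blood, endothelial and stromal cells, 5 were tested, and their sum lay between 0.45 and 0.875 on every array.

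Over the 10 checkpoint genes, 24 h of NU6102 raised CLSPN, HUS1 and ATRIP and lowered CHEK2 and TIMELESS. CDK2-/- cells held more RAD9A, CHEK2 and CLSPN and less HUS1, ATRIP and CHEK1 than WT. R50 cells held less TOPBP1, CLSPN, CHEK1, ATRIP, TIMELESS and ATR than WT, and 0 of the genes were called higher there. Of all differences of the brightest probes 1 reached a size of 1 on the log2 scale, that of CLSPN between R50 and WT+NU6102. The second probe of ATRIP also reached it in that comparison, at −1.14.

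**Figure D1:**
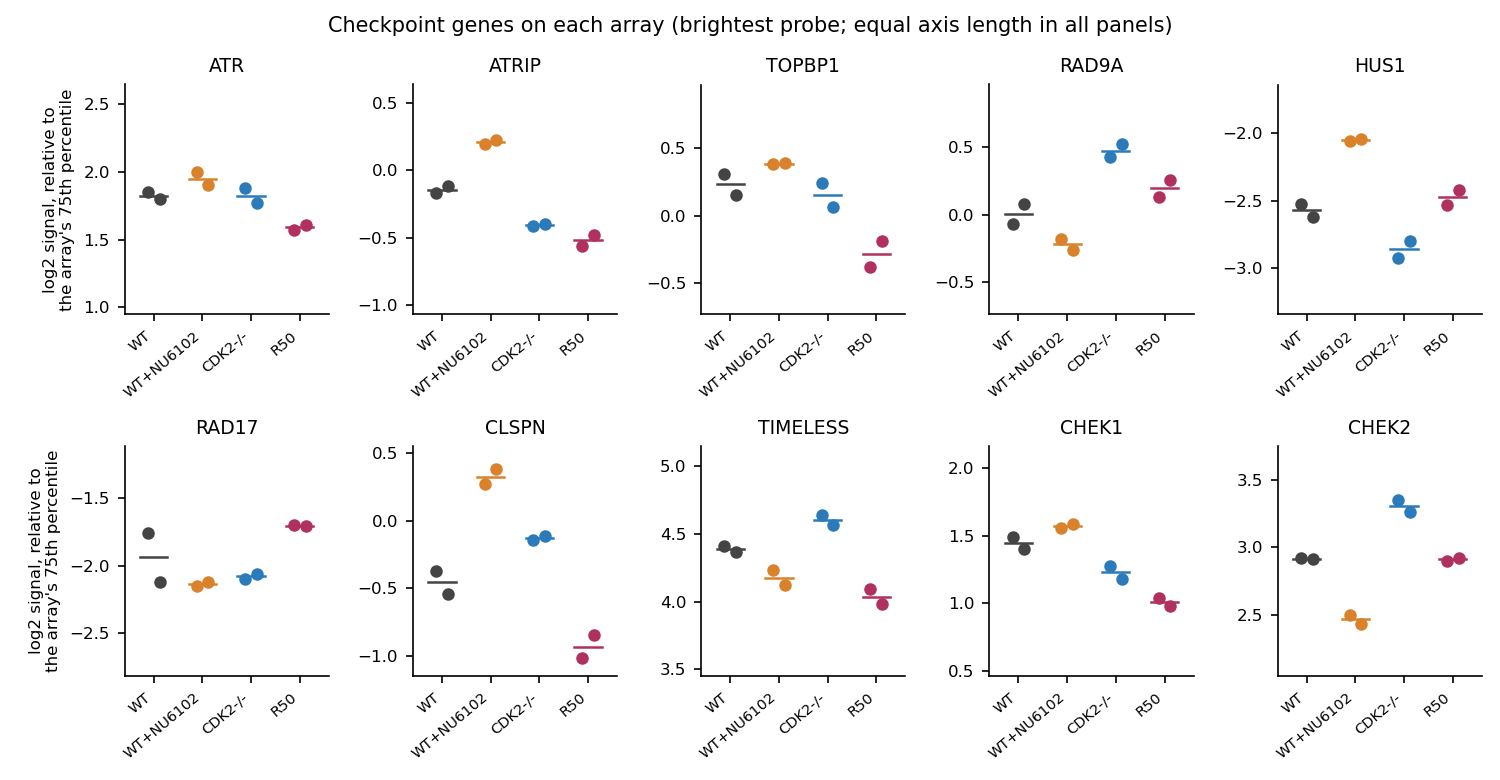
Log2 signal of the brightest probe of each checkpoint gene, relative to the 75th percentile of the array, on the 2 arrays of each group (points) with the group mean (line); the y axes are shifted but have the same length. CLSPN spans −1.02 in R50 to 0.38 in WT+NU6102, and CHEK2 is lowest in WT+NU6102 and highest in CDK2-/- cells.

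ATR is the apical kinase of the checkpoint, and its brightest probe lies at chr3:142168364-142168423 on the minus strand (hg19, as for all probes). It gave 1.85 and 1.80 in WT, 2.00 and 1.90 in WT+NU6102, 1.88 and 1.77 in CDK2-/- and 1.57 and 1.61 in R50 cells. Both R50 arrays lay under every other array, while WT and CDK2-/- arrays overlapped. R50 differed from WT by −0.24 ± 0.06 (limma adjusted p = 0.0493) and from CDK2-/- by −0.24 ± 0.06 (adjusted p = 0.0354), and the first of these was called in 0 of the 8 fits that leave out 1 array and the second in 2. Treated cells stood 0.13 ± 0.06 above WT, which was not called (adjusted p = 0.163), and R50 differed from them by −0.36 ± 0.06 (adjusted p = 0.00485). The second ATR probe differed by −0.41 ± 0.08 in that comparison (adjusted p = 0.0086) and by −0.27 ± 0.08 between R50 and WT, which was not called (adjusted p = 0.0751).

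ATRIP tethers ATR to coated single-stranded DNA. Its brightest probe, shown because it crosses an intron and so reads spliced transcript, lies on the plus strand of chr3:48502140-48505144 (hg19).
ATRIP probe: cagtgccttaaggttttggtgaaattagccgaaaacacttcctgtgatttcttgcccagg
ATRIP gave −0.17 and −0.12 in WT, 0.19 and 0.22 in WT+NU6102, −0.41 and −0.40 in CDK2-/- and −0.56 and −0.48 in R50 cells. The 4 groups did not overlap, in the order R50, CDK2-/-, WT and WT+NU6102, with the lowest neighbours, R50 and CDK2-/-, only −0.11 ± 0.05 apart (limma adjusted p = 0.151). Treatment raised ATRIP by 0.35 ± 0.05 (adjusted p = 0.0031), and WT was undercut by CDK2-/- cells, at −0.26 ± 0.05 (adjusted p = 0.0138; called in 5 of the 8 fits without 1 array), and by R50 cells, at −0.37 ± 0.05 (adjusted p = 0.00731). The second probe, which also crosses an intron, moved the same way and further. It changed by 0.66 ± 0.06 with treatment, −0.31 ± 0.06 in CDK2-/- and −0.48 ± 0.06 in R50 cells, each called. R50 differed from WT+NU6102 by −0.72 ± 0.05 on the brightest probe (limma adjusted p = 0.000166). On the second probe that difference was −1.14 ± 0.06 (adjusted p = 7.42e-05).

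TOPBP1, the activator of ATR (chr3:133329907-133329966, minus strand), gave 0.31 and 0.15 in WT, 0.38 and 0.39 in WT+NU6102, 0.24 and 0.06 in CDK2-/- and −0.38 and −0.19 in R50 cells. The R50 arrays lay below all the others, and the WT and CDK2-/- arrays overlapped. The log2 fold change in R50 was −0.52 ± 0.10 against WT (limma adjusted p = 0.02), −0.44 ± 0.10 against CDK2-/- within the slide (adjusted p = 0.0214) and −0.67 ± 0.10 against WT+NU6102 (adjusted p = 0.00264). These calls stood in 5, 6 and 8 of the 8 fits without 1 array. Neither treatment (0.15 ± 0.10) nor CDK2 loss (−0.08 ± 0.10) gave a call.

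RAD9A is a subunit of the clamp (chr11:67165480-67165539, plus strand). It gave −0.07 and 0.08 in WT, −0.18 and −0.26 in WT+NU6102, 0.43 and 0.52 in CDK2-/- and 0.13 and 0.26 in R50 cells. CDK2-/- arrays were the highest and the treated arrays the lowest, with no overlap between any of the groups. RAD9A was 0.46 ± 0.08 higher in CDK2-/- than in WT (limma adjusted p = 0.00946; called in 7 of the 8 fits), and R50 lay −0.28 ± 0.08 from CDK2-/- (adjusted p = 0.045; called in 2 of the 8 fits without 1 array) and 0.41 ± 0.08 from WT+NU6102 (adjusted p = 0.00712). The difference of treated cells from WT, −0.23 ± 0.08, was not called (adjusted p = 0.0664).

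HUS1, another clamp subunit (chr7:48004001-48004060, minus strand), had nearly the opposite order of groups. It gave −2.52 and −2.62 in WT, −2.06 and −2.04 in WT+NU6102, −2.92 and −2.80 in CDK2-/- and −2.53 and −2.42 in R50 cells. Treated cells were highest and CDK2-/- cells lowest, and only WT and R50 overlapped. Treatment raised HUS1 by 0.52 ± 0.07 (limma adjusted p = 0.00225), CDK2-/- cells differed from WT by −0.28 ± 0.07 (adjusted p = 0.0293; called in 2 of the 8 fits without 1 array), and R50 exceeded CDK2-/- by 0.38 ± 0.07 (adjusted p = 0.0102). Against WT+NU6102, R50 was lower, at −0.43 ± 0.07 (adjusted p = 0.00362).

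RAD17, the loader subunit that places the clamp, had the widest standard error of the 10 genes. Its probe crosses an intron at chr5:68695972-68706354 on the plus strand. It gave −1.76 and −2.12 in WT, −2.15 and −2.12 in WT+NU6102, −2.10 and −2.06 in CDK2-/- and −1.70 and −1.71 in R50 cells. The 2 WT arrays spanned nearly the whole range of the other groups, and the R50 arrays were above all the others. R50 stood 0.23 ± 0.12 above WT, which was not called (limma adjusted p = 0.209), and 0.05 to 0.41 above it without 1 array. R50 exceeded WT+NU6102 by 0.43 ± 0.12 (limma adjusted p = 0.0251), a call kept in 4 of the 8 fits without 1 array and lost under quantile normalization and without a filter on dim probes. Against CDK2-/-, within the slide, R50 differed by 0.38 ± 0.12, just short of the threshold (adjusted p = 0.0545). That difference was called with normexp, quantile normalization, probes above background on all 8 arrays, the authors' values, a trended prior variance, only the arrays of both groups and the methods' t-test (adjusted p between 0.0232 and 0.0465), and in 2 of the 8 fits without 1 array, those without a WT array.

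The widest movement was in claspin, the adaptor that presents CHK1 to ATR. Its probe lies on the minus strand of chr1:36204117-36204176 (hg19) and is printed because the largest difference among the 10 genes rests on it alone.
CLSPN probe: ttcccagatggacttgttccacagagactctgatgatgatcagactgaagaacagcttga
CLSPN gave −0.37 and −0.54 in WT, 0.27 and 0.38 in WT+NU6102, −0.14 and −0.11 in CDK2-/- and −1.02 and −0.85 in R50 cells. No 2 groups overlapped, and the order was R50, WT, CDK2-/- and WT+NU6102. Treatment raised it by 0.78 ± 0.09 (limma adjusted p = 0.00133), and R50 was lower than WT by −0.48 ± 0.09 (adjusted p = 0.018), than CDK2-/- by −0.81 ± 0.09 (adjusted p = 0.00181) and than WT+NU6102 by −1.26 ± 0.09 (adjusted p = 0.00017). CDK2-/- exceeded WT by 0.33 ± 0.09 (adjusted p = 0.0378), but that call stood in only 2 of the 8 fits without 1 array, and the call of R50 against WT in 6.

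TIMELESS travels with the fork as partner of TIPIN and helps claspin reach CHK1. Its probe lies at chr12:56810945-56811004 on the minus strand. It gave 4.41 and 4.37 in WT, 4.23 and 4.12 in WT+NU6102, 4.64 and 4.57 in CDK2-/- and 4.09 and 3.98 in R50 cells. No groups overlapped, with CDK2-/- highest and R50 lowest, and the treated cells lay on the lower side of WT. Against WT the log2 fold change was −0.22 ± 0.07 with treatment (limma adjusted p = 0.0394; called in 2 of the 8 fits without 1 array), 0.21 ± 0.07 in the knockout (adjusted p = 0.0581) and −0.36 ± 0.07 in R50 cells (adjusted p = 0.0169; called in 5 of the 8). R50 differed from CDK2-/- by −0.57 ± 0.07 (adjusted p = 0.00209). R50 and treated cells were not separated, at −0.14 ± 0.07 (adjusted p = 0.134), and under quantile normalization this difference changed sign.

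CHEK1 encodes the effector kinase CHK1. The probe lies on the plus strand of chr11:125525158-125525217 (hg19) and is given because every CHEK1 value rests on it.
CHEK1 probe: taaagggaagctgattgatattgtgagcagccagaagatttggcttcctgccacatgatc
CHEK1 gave 1.49 and 1.40 in WT, 1.56 and 1.59 in WT+NU6102, 1.28 and 1.18 in CDK2-/- and 1.04 and 0.98 in R50 cells. The order was R50, CDK2-/-, WT and WT+NU6102, with no overlap, as for ATRIP. R50 was lower than WT by −0.44 ± 0.06 (limma adjusted p = 0.00803) and lower than WT+NU6102 by −0.56 ± 0.06 (adjusted p = 0.000764), and both calls stood in all 8 fits without 1 array. The other calls were marginal. CDK2-/- differed from WT by −0.21 ± 0.06 (adjusted p = 0.0486) and R50 from CDK2-/- by −0.22 ± 0.06 (adjusted p = 0.0384), and each was called in 0 of those fits. Treated cells differed from WT by 0.13 ± 0.06, which was not called (adjusted p = 0.154).

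CHEK2, the effector of the ATM branch, had 6 probes on chromosome 22 (hg19). Of these, 3 overlap and are shown because they hold the same stretch of sequence with different neighbours. The capitals mark the 19 bases that all 3 share. The first lies at chr22:29085156-29090031, the second at chr22:29085145-29090020 and the third at chr22:29085126-29085185, all on the minus strand. The first and second cross an intron, and in their overlap of 49 bases they differ at 1 position, G50C, counted from 1 at the 5′ end of the first, with the base of the first probe written before that of the second.
CHEK2 probe 1: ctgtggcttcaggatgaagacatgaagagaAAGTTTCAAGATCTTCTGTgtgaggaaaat
CHEK2 probe 2: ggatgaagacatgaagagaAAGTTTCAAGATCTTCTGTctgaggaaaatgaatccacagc
CHEK2 probe 3: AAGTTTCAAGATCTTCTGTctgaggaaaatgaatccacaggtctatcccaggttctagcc
The brightest CHEK2 probe, at chr22:29083822-29083881, gave 2.92 and 2.91 in WT, 2.50 and 2.43 in WT+NU6102, 3.35 and 3.26 in CDK2-/- and 2.90 and 2.92 in R50 cells. Treated arrays were lowest and CDK2-/- arrays highest, and WT and R50 coincided. Its log2 fold change was −0.45 ± 0.05 with treatment (limma adjusted p = 0.0015) and 0.39 ± 0.05 in CDK2-/- cells (adjusted p = 0.0046), and R50 differed from WT by −0.01 ± 0.05 (adjusted p = 0.93), a value whose sign turned under normexp and quantile processing. R50 was −0.40 ± 0.05 from CDK2-/- (adjusted p = 0.0037) and 0.45 ± 0.05 from WT+NU6102 (adjusted p = 0.0011). Each of the 4 called differences was called in all 8 fits without 1 array.

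The differences of the other 5 CHEK2 probes had the same signs in these 4 comparisons. Overlapping probe 1 read −0.40 and −0.35 in WT, −0.84 and −0.74 in WT+NU6102, 0.10 and 0.02 in CDK2-/- and −0.44 and −0.46 in R50 cells, so the treated and knockout arrays again stood on either side. Across the 6 probes the log2 fold change lay between −0.49 and −0.28 with treatment, between 0.22 and 0.44 in CDK2-/- and between −0.08 and 0.01 in R50 cells, all against WT. The smallest change with treatment and in CDK2-/- cells came from the probe at chr22:29121275-29121334, the farthest 5′ of the 6, which was called with treatment (limma adjusted p = 0.0272) but not in CDK2-/- cells (adjusted p = 0.0756). This was the only CHEK2 probe that missed the threshold in CDK2-/- cells. It also missed it in R50 against WT+NU6102, at 0.21 ± 0.07 (adjusted p = 0.0652). The 3′ exons of CHEK2 have near-identical copies elsewhere in the genome, so how much of the signal of the other 5 probes comes from CHEK2 itself was not tested.

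**Figure D2:**
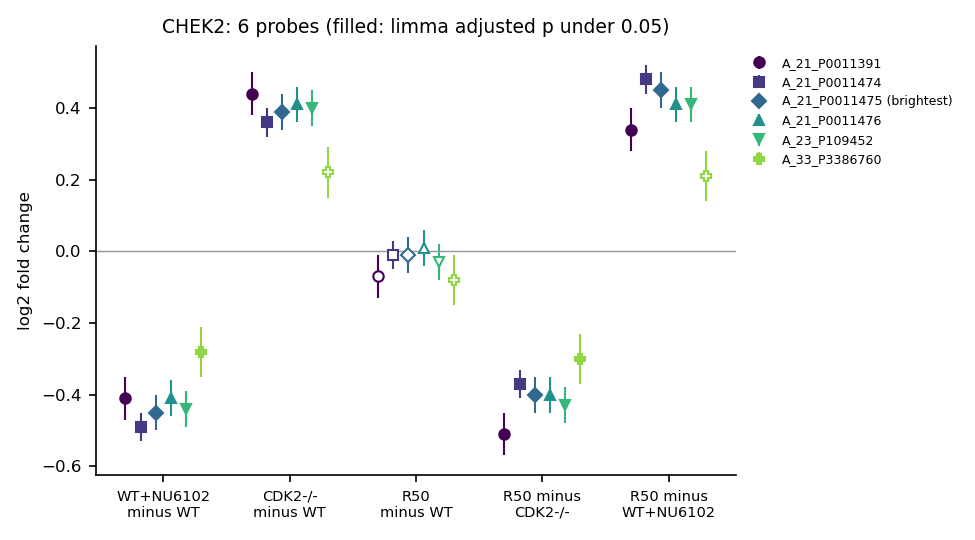
Log2 fold change (y axis) of each of the 6 CHEK2 probes in the 5 comparisons (x axis), with the standard error of the limma fit; filled symbols passed an adjusted p under 0.05. All 6 probes are lower with treatment and above 0 in CDK2-/- cells, where 1 misses the threshold, while R50 against WT stays between −0.08 and 0.01.

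The promoters of 9 of the 10 genes were found in a RefSeq-based table of GRCh38.p14, by symbol. The 250 bases before the outermost start of each gene were searched on both strands for 3 short motifs known from cell cycle genes. The CCAAT box (CCAAT, or ATTGG on the other strand) was in 6 of 9 windows, those of ATRIP, CHEK1, CHEK2, CLSPN, RAD9A and TIMELESS, and in 32% of all 35116 windows of that length. An E2F motif (TTTCCCGC, TTTCGCGC, TTTGCCGC or TTTGGCGC) was in 0 of 9 and in 2.79% of all windows, and the CHR (TTTGAA or TTCGAA) in 0 of 9 and in 14.3%. A match is a run of letters, not a bound site. CLSPN and CHEK2 each hold 3 CCAAT boxes. Their transcripts moved in opposite directions with treatment and in the same direction in CDK2-/- cells, at 0.33 and 0.39 against WT. Any part of the boxes in these values was not tested. ATR and TOPBP1 were also lower in R50 than in WT, with 0 boxes in their windows, and RAD9A, with 1 box, was not called there. The windows are shown for CLSPN, CHEK1, TIMELESS and ATRIP, which hold a box and were lower in R50 than in WT. The window of CHEK2, which was not called there, is shown too. Capitals mark the CCAAT box. They lie at chr1:35769979-35770228 (minus strand), chr11:125625974-125626223 (plus), chr12:56449427-56449676 (minus), chr3:48446487-48446736 (plus) and chr22:28741821-28742070 (minus), in that order.
CLSPN upstream: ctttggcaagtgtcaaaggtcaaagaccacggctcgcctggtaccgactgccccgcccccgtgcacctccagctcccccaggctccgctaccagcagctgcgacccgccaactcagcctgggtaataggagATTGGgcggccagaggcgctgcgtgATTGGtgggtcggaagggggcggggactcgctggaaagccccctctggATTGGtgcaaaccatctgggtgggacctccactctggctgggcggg
CHEK1 upstream: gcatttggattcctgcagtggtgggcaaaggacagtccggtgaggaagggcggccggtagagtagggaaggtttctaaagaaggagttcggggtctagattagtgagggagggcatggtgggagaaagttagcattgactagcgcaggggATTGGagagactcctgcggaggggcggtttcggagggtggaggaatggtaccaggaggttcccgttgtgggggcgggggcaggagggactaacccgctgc
TIMELESS upstream: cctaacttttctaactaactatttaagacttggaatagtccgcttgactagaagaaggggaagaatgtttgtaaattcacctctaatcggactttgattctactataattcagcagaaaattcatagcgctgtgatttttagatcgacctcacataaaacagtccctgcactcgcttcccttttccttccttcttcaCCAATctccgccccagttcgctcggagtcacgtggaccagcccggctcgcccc
ATRIP upstream: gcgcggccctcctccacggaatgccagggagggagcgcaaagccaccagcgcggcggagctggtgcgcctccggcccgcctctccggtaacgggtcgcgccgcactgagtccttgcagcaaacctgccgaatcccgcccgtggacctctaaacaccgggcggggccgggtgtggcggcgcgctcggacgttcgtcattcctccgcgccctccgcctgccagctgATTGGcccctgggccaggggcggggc
CHEK2 upstream: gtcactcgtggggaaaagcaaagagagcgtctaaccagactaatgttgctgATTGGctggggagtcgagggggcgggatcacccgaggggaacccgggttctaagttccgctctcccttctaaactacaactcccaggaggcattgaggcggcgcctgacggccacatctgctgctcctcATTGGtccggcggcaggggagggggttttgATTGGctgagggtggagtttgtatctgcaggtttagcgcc

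Counted by comparison, the share of the 10 genes called has to be read against all probes, of which many were called. All probes include dim ones. Of those above background on all 8 arrays, tested alone, 50.9% were called with treatment, 37% in CDK2-/- and 28.4% in R50 against WT. In R50 against CDK2-/- and WT+NU6102 the shares were 40.5% and 57.3%. Of the 10 genes, all among those probes, 6, 7, 6, 9 and 9 were called there, in that order. The counts that follow use all tested probes. With 24 h of NU6102, 5 of 10 genes were called (3 higher, 2 lower), and of all probes 44.8% were called, 23.8% higher and 21% lower. That share is close to the background. The median log2 fold change of the genes was 0.13 and that of all probes 0.03. In CDK2-/- against WT, 6 of 10 were called, 3 in each direction, against 31.1% of all probes (16.1% higher, 15% lower), with a median of −0.04 for the genes and 0.02 for all probes. Without a filter on dim probes 2 were called (10.5% of all probes there), with only the arrays of both groups 3 (25.5%), and without CDK2-/- replicate 2 the count was 1, without CDK2-/- replicate 1 it was 2, and without either WT or either WT+NU6102 array 3, while the share of all probes called was 18.8% to 28.3% in these fits.

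The calls in R50 cells ran mainly one way. Against WT, 6 of 10 genes were lower and 0 higher in limma, and at an unadjusted p under 0.05 the same 6 passed. Of all probes 22.7% were called, 9.8% higher and 12.9% lower. The median of the genes was −0.30 and that of all probes −0.04. The count of 6 dropped to 2 without a filter on dim probes, to 1 with only the arrays of R50 and WT, and to 3 without either WT array or without R50 replicate 1 (4 without R50 replicate 2). The share of all probes called dropped under the same settings, to 4.65%, to 9.3% and to between 9.37% and 13.2%. Without WT replicate 1 the calls included RAD17, which was higher in R50, by 0.41, so not every remaining call was a lower one. The methods' t-test with the same adjustment called 0, where it called 0.0453% of all probes, and 4 at an unadjusted p under 0.05.

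Within slide 1, R50 differed from CDK2-/- in 8 of 10 genes, 7 lower and 1 higher, where 34.7% of all probes were called, 14.9% higher and 19.8% lower. The median of the genes was −0.26 and that of all probes −0.06. HUS1 was the gene that was higher, and ATRIP and RAD17 were not called. This count was 3 without CDK2-/- replicate 1, 4 without R50 replicate 1, 5 without CDK2-/- replicate 2 or R50 replicate 2, 4 without a filter on dim probes, and 5 with only the arrays of both groups. Of all probes 22.7% to 26.9% were called without those arrays, 12.3% without the filter and 25.4% with both groups alone.

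R50 and WT+NU6102 cells, both exposed to NU6102, differed in 9 of 10 genes, 6 lower and 3 higher in R50, against 51.6% of all probes (22.9% higher, 28.7% lower). The median was −0.40 for the genes and −0.06 for all probes. CHEK2, RAD9A and RAD17 were higher in R50 and TIMELESS was not called. Between 8 and 9 genes were called without any 1 array. Over all 4 groups, ATRIP, CHEK2 and CLSPN passed limma's F-test at an adjusted p under 0.001, 3 of 10 against 21.2% of all probes. At an adjusted p under 0.05 the F-test passed 9 of the 10, but the share of all probes was not counted at that threshold, so this count has no background beside it.

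**Figure D3:**
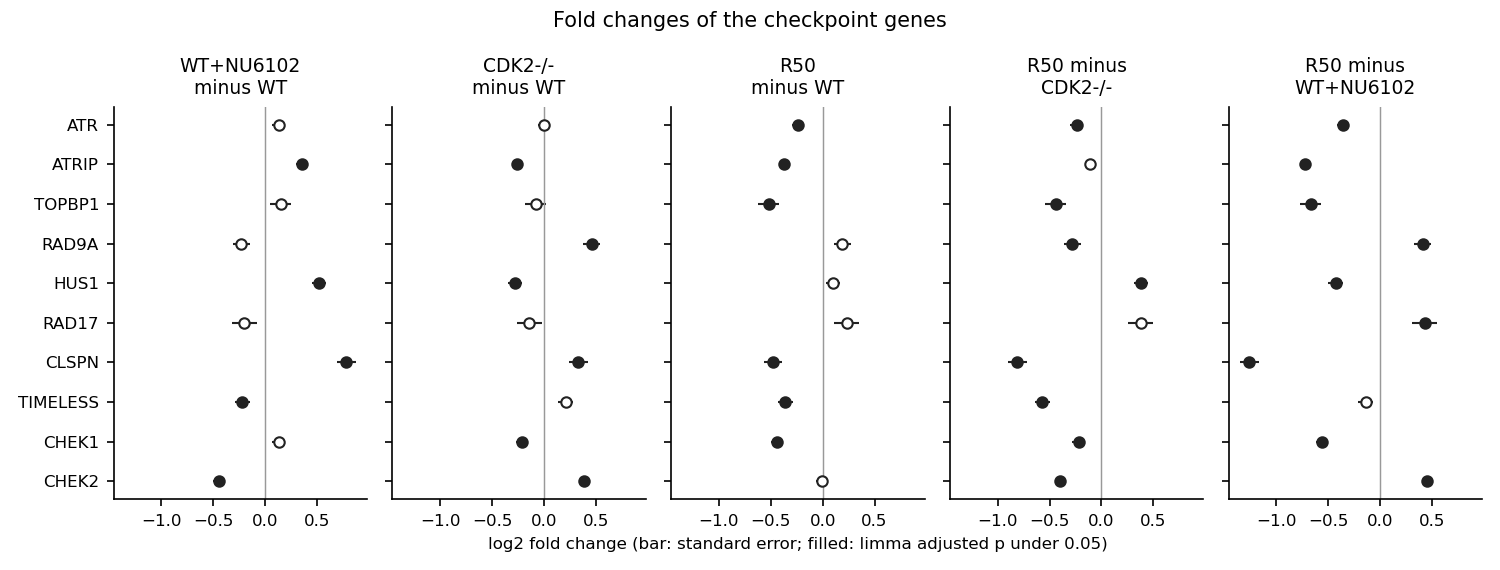
Log2 fold change (x axis) of the brightest probe of each of the 10 checkpoint genes in 5 comparisons, with the standard error of the limma fit; filled points passed an adjusted p under 0.05. Filled points lie only to the left of 0 in R50 minus WT, and CLSPN reaches −1.26 in R50 minus WT+NU6102.

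Comparisons that share arrays are not independent, and the values of each gene are therefore set side by side. CLSPN changed by 0.78 in treated, 0.33 in CDK2-/- and −0.48 in R50 cells, HUS1 by 0.52, −0.28 and 0.10, and CHEK2 by −0.45, 0.39 and −0.01, all against the same WT arrays. HUS1 and CHEK2 thus lay on opposite sides of WT in treated and in CDK2-/- cells. Over the 8 arrays, which share 4 group means, the Pearson r of HUS1 with CHEK2 was −0.98, that of RAD9A with CHEK2 was 0.93, and those of ATR with TOPBP1, of CHEK1 with TOPBP1 and of CHEK1 with ATRIP were 0.96, 0.93 and 0.92. These 8 points describe 4 groups of duplicates and carry no test.

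The genes whose pattern over the 8 arrays was most like that of 3 members were sought among 18601 other genes. For CLSPN they were MCM4, a subunit of the replicative helicase, SCO1, a copper chaperone of cytochrome oxidase, and RRP36, a ribosome biogenesis factor, with r of 0.9973, 0.9972 and 0.9968. MCM4 changed by 0.44 in treated, 0.17 in CDK2-/- and −0.24 in R50 cells, a smaller range than CLSPN. For CHEK1 they were XLOC_l2_013845, TWISTNB, a subunit of RNA polymerase I, and XLOC_l2_014711, with r of 0.9919, 0.9916 and 0.989. For TIMELESS they were SYNCRIP, an RNA-binding protein, NKAIN1 and APAF1, the apoptosome scaffold, with r of 0.9899, 0.9895 and 0.9864.

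Of 39 further genes of the pathway, 37 were tested. With treatment 27 were called (19 higher, 8 lower), in CDK2-/- 15 (9 and 6), in R50 against WT 17 (2 and 15), in R50 against CDK2-/- 25 (5 and 20) and in R50 against WT+NU6102 27 (6 and 21). Their median log2 fold changes were 0.20, 0.04, −0.19, −0.28 and −0.34 in that order, beside the background shares and medians of all probes given above. Without WT replicate 1, CDK2-/- against WT gave 8 and R50 against WT 9, without CDK2-/- replicate 1 CDK2-/- against WT gave 8 and R50 against CDK2-/- 16, and without R50 replicate 2 R50 against WT gave 11. R50 against WT gave 8 with only the arrays of both groups, where 9.3% of all probes were called. In the fits named here that leave out 1 array, the share of all probes called was lower too.

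RAD1 is the clamp subunit that completes RAD9A and HUS1. RAD1 gave 0.61 and 0.61 in WT, 1.40 and 1.42 in WT+NU6102, 0.49 and 0.47 in CDK2-/- and 0.06 and 0.07 in R50 cells, with no overlap between groups. It rose by 0.80 ± 0.04 with treatment (limma adjusted p = 0.000173) and R50 differed from WT by −0.54 ± 0.04 (adjusted p = 0.00142) and from WT+NU6102 by −1.34 ± 0.04 (adjusted p = 2.19e-05). Of the 6 tested genes of this group, 5 were higher and 0 lower with treatment. In R50, 0 were higher and 4 lower against WT, and 0 higher and 6 lower against CDK2-/-. Of all probes 23.8% were higher and 21% lower with treatment. In R50 these shares were 9.8% and 12.9% against WT and 14.9% and 19.8% against CDK2-/-. RFC4 rose by 0.62 and RFC5 by 0.47 with treatment, and R50 differed from WT by −0.34 and −0.44. In CDK2-/- cells 3 of the 6 genes were higher, C12orf32 (now RHNO1, a 9-1-1 partner) at 0.42, RFC5 at 0.30 and RFC2 at 0.26. Of all probes 16.1% were higher there.

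Of the fork proteins that work beside claspin and TIMELESS, TIPIN, the partner of TIMELESS, gave 3.79 and 3.83 in WT, 4.30 and 4.30 in WT+NU6102, 3.81 and 3.70 in CDK2-/- and 3.12 and 3.16 in R50 cells. R50 was lowest and treated cells highest, and WT and CDK2-/- overlapped. TIPIN rose by 0.49 ± 0.05 with treatment (limma adjusted p = 0.00127), where TIMELESS was lower, and R50 differed from WT by −0.67 ± 0.05 (adjusted p = 0.00163). Of 6 fork genes, 5 were lower and 0 higher in R50 than in WT, among them DBF4, the partner of the origin-firing kinase CDC7, at −0.51 ± 0.09 (adjusted p = 0.0177). Against CDK2-/-, 5 were lower, among them DONSON at −0.78 and CDC7 at −0.61, and SMARCAL1, a fork remodelling enzyme, was higher at 0.21. In CDK2-/- against WT 2 were called, DONSON at 0.37 and SMARCAL1 at −0.32, where 31.1% of all probes were called. Of all probes 9.8% were higher and 12.9% lower in R50 against WT, and 14.9% and 19.8% in R50 against CDK2-/-.

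Downstream of CHK1, CDC25A and CDC25B moved in opposite directions with treatment and in R50 cells and in the same direction in CDK2-/- cells. CDC25A, the S phase phosphatase, gave 0.78 and 0.73 in WT, 1.77 and 1.77 in WT+NU6102, 1.02 and 1.11 in CDK2-/- and 0.26 and 0.39 in R50 cells. CDC25B, which acts towards mitosis, was lowest where CDC25A was highest and highest where CDC25A was lowest, with 3.27 and 3.28 in WT, 2.46 and 2.48 in WT+NU6102, 3.46 and 3.53 in CDK2-/- and 3.70 and 3.78 in R50 cells. Treatment changed CDC25A by 1.01 ± 0.06 (limma adjusted p = 0.000265), CDC25B by −0.81 ± 0.05 (adjusted p = 0.000282) and CDC25C by −0.51 ± 0.05 (adjusted p = 0.00105). PKMYT1, an inhibitory kinase of CDK1, rose by 0.66 and WEE1, the other such kinase, changed by −0.45. R50 against WT+NU6102 showed the reverse for CDC25A, CDC25B and CDC25C, at −1.44, 1.28 and 1.1. In R50 against WT, CDC25B and CDC25C were higher, by 0.47 and 0.59, and CDC25A (−0.43) and WEE1 (−0.24) lower. In CDK2-/- cells 3 of 7 were called, CDC25A at 0.31, CDC25B at 0.22 and TLK2 at −0.28, where 31.1% of all probes were called.

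Another 6 genes regulate the silencing of the checkpoint, for or against it, and include the phosphatase PPM1D and ubiquitin enzymes that act on claspin. Among them USP1 rose by 0.55 with treatment and differed by −0.27 in R50. It was the only one called in R50 against WT, where 22.7% of all probes were called. In CDK2-/- cells USP7 (0.68 ± 0.12, limma adjusted p = 0.0105), PPM1D (0.41) and USP1 (0.22) were higher, and R50 lay below CDK2-/- for the same 3 genes, at −0.87, −0.29 and −0.50. Of the sensors, RPA3, the smallest subunit of replication protein A, was lower than WT in all 3 other groups, at −0.35 in treated, −0.39 in CDK2-/- and −0.34 in R50 cells, while RPA1 was higher with treatment, at 0.25. In R50 against CDK2-/- the sensors RPA2 (−0.26) and ETAA1 (−0.30), another activator of ATR, were called, and against WT+NU6102 RPA1 (−0.40) and RPA2 (−0.26). In the ATM branch that feeds CHK2, CDK2-/- cells were lower for TP53BP1 (−0.57), ATM (−0.44) and MDC1 (−0.32), and CHEK2 itself was higher. These 3 were the genes called there of 8 tested, where 31.1% of all probes were called. In R50 against WT, NBN (−0.40) and MDC1 (−0.24) were called, and against CDK2-/- TP53BP1 (0.39), ATM (0.25) and NBN (−0.47). Of the 6 genes that regulate silencing, USP1 (−0.83), FBXW11 (−0.15) and BTRC (0.20) were called in R50 against WT+NU6102.

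**Figure D4:**
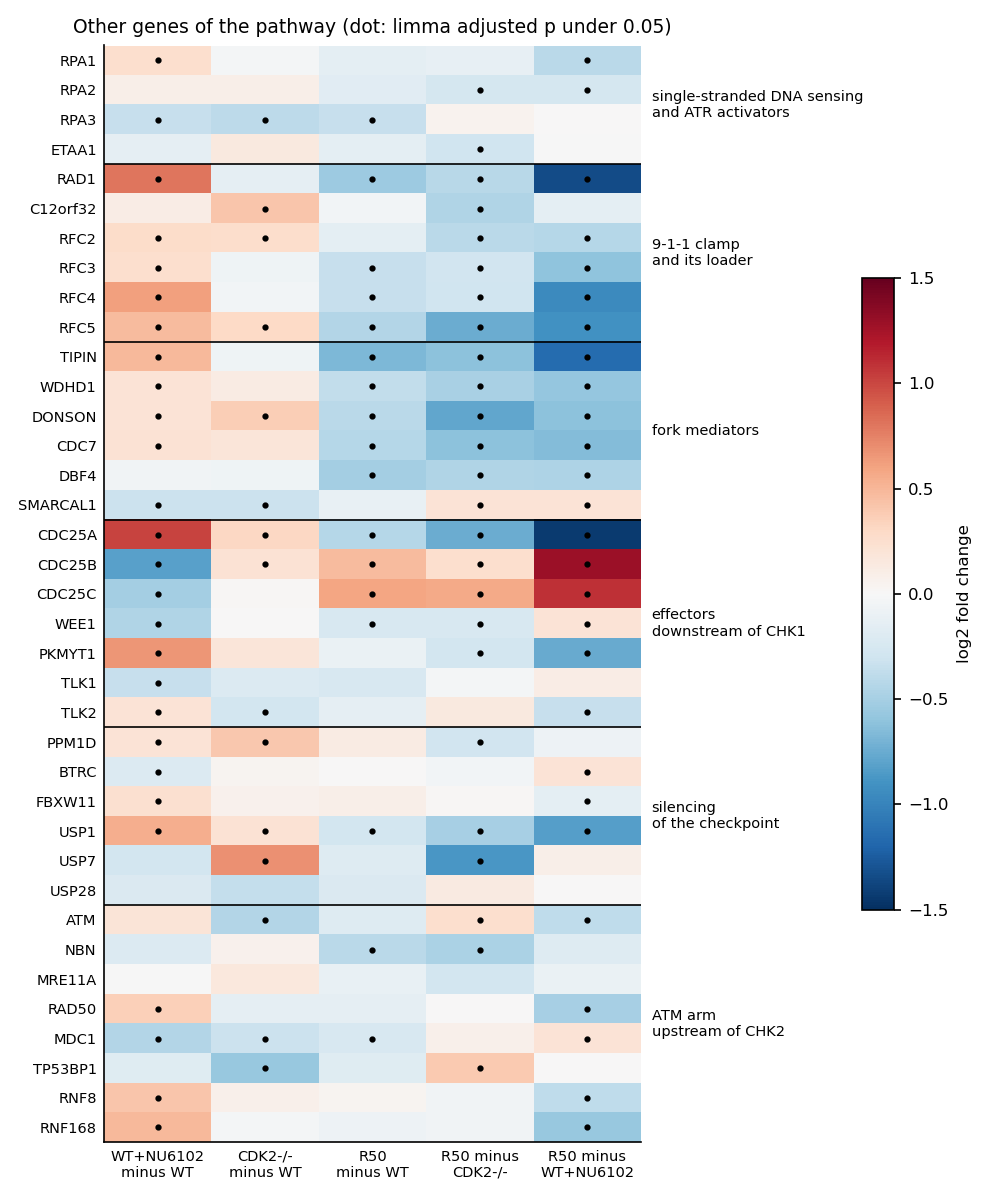
Log2 fold change (colour) of the brightest probe of 37 further pathway genes (rows, grouped by role) in 5 comparisons (columns); a dot marks an adjusted p under 0.05 in limma. RAD1 and CDC25A are above 0 with treatment and reach −1.34 and −1.44 in R50 minus WT+NU6102, where CDC25B is at 1.28.

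Several of these genes are known to peak in S phase, and the level of other S phase genes differed between the groups too. Of 40 such genes, all tested and none of them among the 10, 22 were higher and 6 lower with treatment, 18 and 1 in CDK2-/-, and 0 and 23 in R50, against WT, and 0 were higher and 37 lower in R50 against CDK2-/-. These counts stand against 23.8% of all probes higher and 21% lower with treatment, 16.1% and 15% in CDK2-/-, 9.8% and 12.9% in R50, and 14.9% and 19.8% in R50 against CDK2-/-. Their summed linear signal was 536 to 547 in WT, 633 to 652 in WT+NU6102, 608 to 626 in CDK2-/- and 456 on both R50 arrays. The order of these sums is that of CLSPN, but not that of ATRIP, CHEK1, TIMELESS or RAD9A, whose groups did not overlap either. Of 52 G2 and M genes, 17 were higher and 10 lower with treatment, a share near that of all probes, 2 and 22 in CDK2-/-, and 1 and 18 in R50. Their sum was 742 to 778 in WT, 799 to 800 in WT+NU6102, 665 to 678 in CDK2-/- and 666 to 674 in R50 cells. The part of cell cycle distribution in the checkpoint gene values was not tested, and in bulk RNA fewer cells in a phase and less RNA per cell cannot be told apart. Among the 37 pathway genes, 3 (RPA2, TIPIN and USP1) are also on the S phase list, and without them the counts were 25, 14, 15, 22 and 24 of 34 in the order of comparisons above.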

How the data were processed

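RNA of HCT-116 cells was profiled on 8 one-colour arrays, 2 per group. The authors deposited, for each spot, an intensity made with Agilent Feature Extraction 11.5.1.1 (the version is from the submitters' processing notes), with background subtracted and no scaling between arrays. They also deposited processed log2 values of 28719 probes, which equal the log2 signal less 1 constant per array, centred on the median of each probe (96.59% of values within 0.01). These were used as an alternative.

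Control and outlier spots were left out, the signal was taken to log2, each array was scaled to its 75th percentile and spots of a probe were averaged with R 4.3.3 and the package data.table (version 1.17.8). Of 50599 probes, the test took 28677, those marked well above background on each array of some group. 0 spots were saturated. Limma 3.58.1 fitted the 4 groups together, with two-sided tests, Benjamini-Hochberg adjustment over all tested probes, a threshold of 0.05 for contrasts and 0.001 for the F-test. The procedure was tested on simulated data. Probe positions are those of the WT and WT+NU6102 files (hg19), and upstream sequences are from RefSeq, GRCh38.p14. No coordinates were converted. Figures were drawn with Python 3.11.15 and matplotlib 3.10.9.

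The genes, pathway lists and tests were chosen with earlier results of these data known. Named besides the 10 genes are, per comparison, at most the 4 called pathway genes with the largest change, the genes of a group with 3 or fewer calls, and the 3 genes most correlated with CHEK1, CLSPN and TIMELESS. RFC4, CDC7 and WEE1, and values of named pathway genes in further comparisons, were added after they were seen. Other settings tried were normexp (offset 50) for the background, quantile normalization, other filters on dim probes, the processed values of the authors, a prior variance that follows intensity, a replicate block, a slide block, the arrays of 2 groups alone, the mean of all probes of a gene, a minimum log2 fold change of 1, the methods' ANOVA and t-test, and leaving out each array.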

Additional observations from a re-analysis of the deposited data

How the results depend on the processing

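The counts of called checkpoint genes are given in the order WT+NU6102, CDK2-/- and R50 against WT, and R50 against CDK2-/- and WT+NU6102, where limma gave 5, 6, 6, 8 and 9. With dim probes kept, CDK2-/- and R50 against WT became 2 and 2 and R50 against CDK2-/- 4, and 0 passed the F-test. With only the arrays of the 2 groups compared these became 3, 1 and 5. The methods' t-test, after Benjamini-Hochberg adjustment, gave 3, 0, 0, 1 and 5, where it called 18.5%, 5%, 0.0453%, 7.56% and 28.2% of all probes. At an unadjusted p under 0.05 it gave 4, 4, 4, 5 and 9, and the ANOVA passed 0, with no share of all probes counted for either. A minimum log2 fold change of 1 left 0, 0, 0, 0 and 1, beside 6.49%, 4.75%, 2.59%, 5.19% and 10.9% of all probes. The F-test passed 3 in limma, where 21.2% of all probes passed, and the share of all probes was not counted under other settings. It passed 6 with normexp, 8 with a trended prior variance, and 0 with the replicate block, which moved no count of calls in the contrasts by over 1.5 times. For that block the deviations of same-numbered arrays correlated between −0.028 and 0.045, so the numbers do not pair the samples. Leaving out 1 array gave 4 to 5, 1 to 5, 3 to 5, 3 to 7 and 8 to 9 calls, and 0 past the F-test (9 of 10 had an unadjusted p under 0.05 with no filter, the block or the ANOVA, and 8 to 10 without 1 array).

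For the other pathway genes, where limma gave 27, 15, 17, 25 and 27, the counts without a filter were 17, 9, 9 and 16 in the first 4 comparisons, R50 against WT gave 8 with only the arrays of both groups, and leaving out 1 array gave 20 to 27, 8 to 15, 9 to 16, 16 to 24 and 24 to 25.

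Signs turned only for differences that were not called. ATR in CDK2-/- against WT was 0.001 in limma and became −0.015 with the authors' values, −0.039 with the mean of its probes, −0.005 with quantile normalization and −0.051 to 0.053 without 1 array. CHEK2 in R50 against WT became 0.057 with normexp and 0.028 with quantile normalization, and TIMELESS in R50 against WT+NU6102 became 0.048 with the latter. In CDK2-/- against WT, RAD17 lay between −0.322 and 0.038 and TOPBP1 between −0.169 and 0.01 without 1 array, with 0.001 for TOPBP1 without WT replicate 1. The causes were not tested. With 2 arrays per group the number of arrays limits the precision.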
